A study of Mus musculus with 2 samples.

Results

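Mir335, Mir296, Mir298, Mir483 and Mir675 are the microRNA genes of 4 imprinted loci, those of Mest, Nespas, Igf2 and H19. They were taken by name, not by a rule on their levels, as microRNA genes at imprinted loci other than Dlk1-Dio3, with earlier results of these data known. All 5 were found among the 1973 gene rows. The material was limb of B6NCrl mouse embryos at embryonic day 12.5, healthy and with males and females pooled, and the RNA sequenced was shorter than 30 nucleotides. The labels give 1 group of 2 libraries, numbered as biological replicates. Replicate 1 came from 88 embryos and held 4525636 counts on microRNA genes, and replicate 2 came from 68 embryos and held 3604284. With 1 group and no treatment, the comparisons possible are those between the genes and between the libraries.

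Genomic imprinting is the use of only the paternal or only the maternal copy of a gene, mostly set by DNA methylation laid down in the germ line. Mest, Igf2 and the antisense transcript Nespas of the Gnas locus are known to be used from the paternal copy and H19 from the maternal copy. Igf2 encodes a growth factor of the fetus, Mest a hydrolase-like protein abundant in fetal mesoderm, and H19 a long non-coding RNA. Igf2 and H19 share enhancers, which act on H19 on the maternal chromosome and on Igf2 on the paternal one. A microRNA is cut from a hairpin in a longer transcript, and bases 2 to 8 of the mature strand, the seed, pair with target messages. The strain is inbred and the tables hold no allele, so the parental origin of these microRNAs was not measured here and stands only as background on their hosts.

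Of the 5 genes, 4 have a paternally expressed host and 1, Mir675, a maternally expressed one. The mature strands of both arms are printed 5′ to 3′ with the seed in capitals, because the deposited counts cover a whole hairpin and do not say which arm was read. All sequences are from RefSeq on GRCm38.p6, the assembly also called mm10, and all 5 genes matched by symbol.
miR-335-5p: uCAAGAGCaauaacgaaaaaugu
miR-335-3p: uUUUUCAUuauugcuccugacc
miR-296-5p: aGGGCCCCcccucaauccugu
miR-296-3p: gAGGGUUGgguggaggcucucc
miR-298-5p: gGCAGAGGagggcuguucuuccc
miR-298-3p: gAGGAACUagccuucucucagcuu
miR-483-5p: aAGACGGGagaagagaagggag
miR-483-3p: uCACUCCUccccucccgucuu
miR-675-5p: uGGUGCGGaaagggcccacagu
miR-675-3p: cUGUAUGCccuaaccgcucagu

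The 5 genes shared no seed with each other. None of their 10 arms had a seed that occurred in an arm of any other gene of the RefSeq table, whereas 32.0% of the 1738 mature arms in that table did. The Nespas pair, although its hairpins lie side by side, therefore has 4 different seeds. MiR-483-5p is nearly all purine, at 95.5% A or G against a median of 50% over all arms, and no arm in the table had a higher share. Its partner miR-483-3p held 9.52% A or G.

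The hairpins of Mir335, Mir483 and Mir675 are printed because these genes are the highest of the 5, the one that differed most between the libraries and the lowest. Capitals mark the 2 mature arms.
Mir335 hairpin: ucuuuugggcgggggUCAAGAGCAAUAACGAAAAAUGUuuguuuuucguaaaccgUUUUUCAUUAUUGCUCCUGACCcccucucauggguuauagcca
Mir483 hairpin: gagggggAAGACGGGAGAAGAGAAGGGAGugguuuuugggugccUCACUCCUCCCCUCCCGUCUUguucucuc
Mir675 hairpin: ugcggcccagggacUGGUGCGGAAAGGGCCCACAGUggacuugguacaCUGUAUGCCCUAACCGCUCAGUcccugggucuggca

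Mir335 was the least GC-rich hairpin of the 5 and Mir296 and Mir675 the most. GC made up 42.9% of the Mir335 hairpin, 53.7% of Mir298, 58.9% of Mir483, 63.1% of Mir675 and 63.3% of Mir296. The median was 49.4% over the 163 hairpins that had a RefSeq sequence and a mean level of 100 CPM or more, where CPM is counts per 1000000 counts on microRNA genes. Mir675 had the lowest predicted folding energy per nucleotide of the 5 genes, at -0.67 kcal/mol, and none of those 163 hairpins was lower. Over all 869 hairpins with a row, whatever their level, 17 were lower. The predicted energies per nucleotide of the other members were -0.55 for Mir296, -0.52 for Mir298, -0.46 for Mir483 and -0.45 for Mir335, against a median of -0.44 over the 163. No hairpin of the 5 shared a stretch of 20 nucleotides with the hairpin of another gene in the table.

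Mir335 lies on chromosome 6 (30741299 to 30741396, plus strand) in an intron of Mest. It falls in an intron of 7 of the 11 Mest transcripts of GENCODE M21, of which intron 2 of the transcript Mest-210 is one, and outside the other 4. Mir483 lies on chromosome 7 (142654924 to 142654996, minus strand) in an intron of 7 of the 9 Igf2 transcripts. Mir675 (142577064 to 142577147, minus strand) lies 77.8 kb away on the same strand. It falls in an exon of 3 of the 7 H19 transcripts, among them exon 1 of H19-202, and in an intron of 1. Mir296 (174267047 to 174267125) and Mir298 (174267504 to 174267585) lie 378 bp apart on the minus strand of chromosome 2. In this annotation they stand outside Nespas, on its strand and downstream of its last exon, by 14.1 kb for Mir296 and 13.7 kb for Mir298. Nespas as their host is therefore background knowledge and not a feature of the annotation used.

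**Figure D1:**
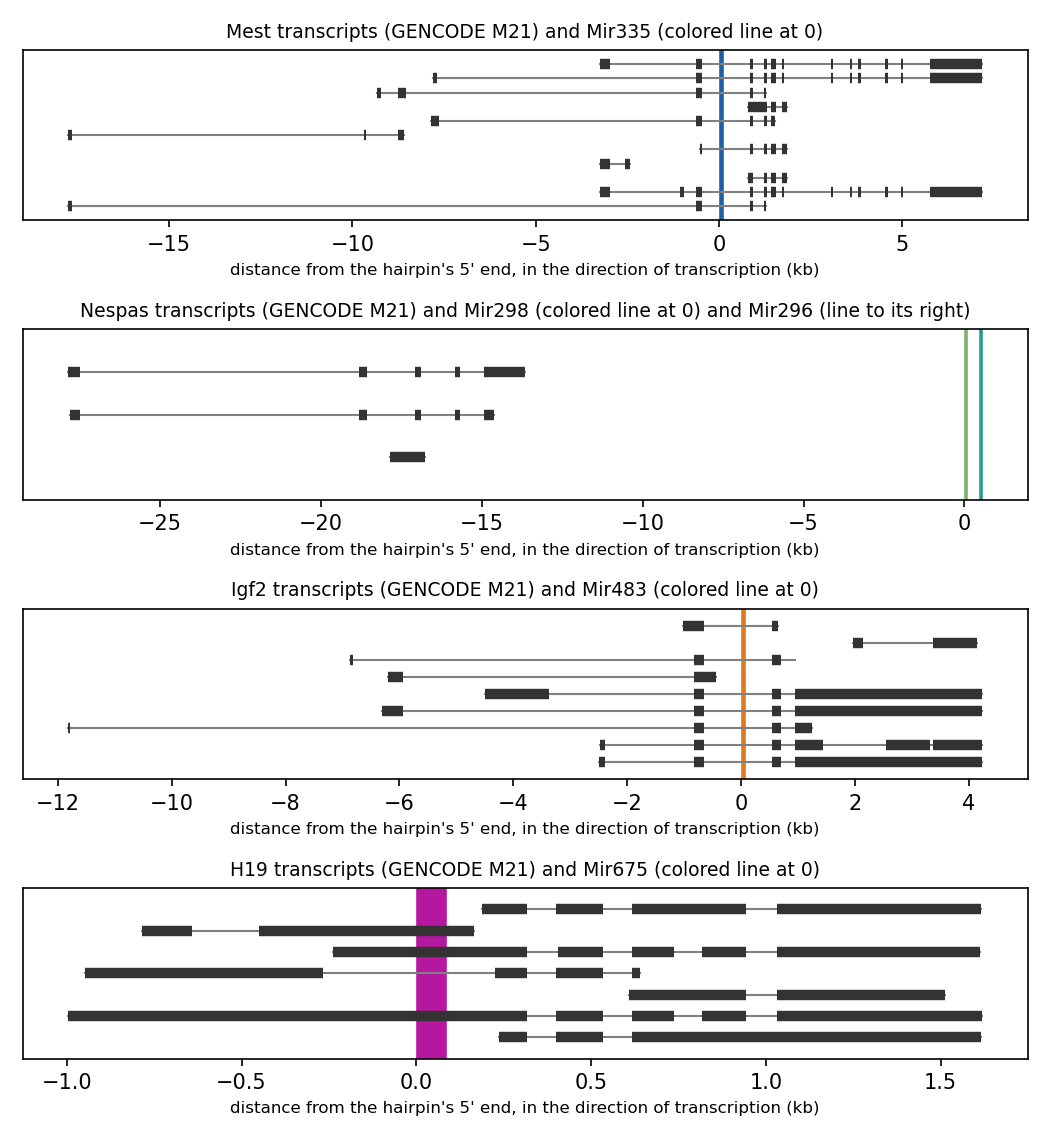
Each row is 1 transcript of the host gene, with exons as thick bars and introns as thin lines, against distance in kb from the 5′ end of the hairpin in the direction of transcription. Colored bands mark the hairpins to scale: Mir335 and Mir483 fall between exons, Mir675 over exons of 3 H19 transcripts, and Mir298 and Mir296 downstream of the annotated Nespas transcripts.

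Mir335 far exceeded the other 4 genes. Together the 5 genes held 9.25% ± 0.33 (SD, n = 2) of the counts, 9.48% in replicate 1 and 9.01% in replicate 2. Mir335 made up 85.1% of that sum in replicate 1 and 79.7% in replicate 2. Reads that map to several places, 27.2% of all reads in replicate 1 and 23.7% in replicate 2, are in neither the counts nor their total. Shares and ranks therefore hold only among the counted reads, where genes with several copies can stand too low. In the mean and in replicate 1 the order was Mir335, then Mir296, Mir483 and Mir298 within a narrow range, then Mir675 far lower. In replicate 2 Mir483 stood above Mir296. All 5 reached the detection level of 10 CPM in both libraries, as did 286 of the 1973 genes.

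Mir335 is studied as a suppressor of migration in tumor cells and in mesenchymal stem cells. It gave 364891 counts, or 80628 CPM, in replicate 1 and 258817 counts, or 71808 CPM, in replicate 2. Among the counted reads, which leave out those that map to several places, only 1 gene, Mir196b of the HoxA cluster, stood higher in either library. The 95% Clopper-Pearson interval of the Mir335 level ran from 80377 to 80879 CPM in replicate 1 and from 71542 to 72075 in replicate 2. These intervals cover counting error only, since PCR copies are not independent molecules, and they did not overlap. The difference, 1.12 times in favor of replicate 1, was larger than counting error but small beside the gap to the next member. Mir335 exceeded Mir296 by 13.2 times in replicate 1 and by 11.4 in replicate 2.

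Mir296 and Mir298 are the hairpins downstream of Nespas. Mir296 is known from work on blood vessel growth and on messages of pluripotency factors. Mir296 stood at 6107 CPM in replicate 1 and 6301 CPM in replicate 2, at ranks 35 and 37 of all genes. Its coefficient of variation, 2.22%, was the lowest of the 5 and compares with a median of 8.98% over the 189 genes at 100 CPM or more. Mir298 stood at 3771 CPM in replicate 1 and 4542 CPM in replicate 2. Mir296 was the higher of the pair in both libraries, by 1.62 times in replicate 1 and by 1.39 in replicate 2. The log2 ratio of the libraries (replicate 2 over replicate 1) was thus lower for Mir296 than for Mir298 by 0.22, with a counting standard error of 0.02. This pair was 1 of 41 neighboring pairs on 1 strand within 1000 bp of each other, with both genes at 100 CPM or more. Of the 41, 22 differed by more than this pair and the median difference was 0.26. The pairs were not matched for depth, and counting error is larger in pairs with fewer counts.

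Mir483 is known from fetal liver, from Wilms tumors and as a product of the Igf2 locus. It had 18473 counts in replicate 1 and 26508 in replicate 2, although replicate 2 was the shallower library. This is 4082 CPM (95% interval 4023 to 4141) in replicate 1 and 7355 CPM (7267 to 7443) in replicate 2, a mean of 5718 ± 2314 (SD, n = 2). Its level was 1.80 times higher in replicate 2 and its coefficient of variation, 40.5%, was the highest of the 5. Because of this spread its place among the members was not resolved. Mir296 exceeded Mir483 in replicate 1 (6107 against 4082 CPM), whereas in replicate 2 Mir483 was the higher (7355 against 6301 CPM). Mir483 exceeded Mir298 in both libraries, by 1.08 times in replicate 1 and by 1.62 in replicate 2.

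Mir675 is made from H19 and is known in placenta, where its release late in gestation limits growth. It was the lowest of the 5 by a wide margin, with 855 counts (189 CPM, 95% interval 176 to 202) in replicate 1 and 466 counts (129 CPM, 118 to 142) in replicate 2. It ranked 159th and 175th of all genes. In the mean, 118 genes stood between it and Mir298, the next member above. The intervals of the libraries did not overlap, and replicate 1 was higher by 1.46 times. Its level was well above the 3 counts that a count of 0 allows, which is 0.663 CPM in replicate 1 and 0.832 in replicate 2.

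**Figure D2:**
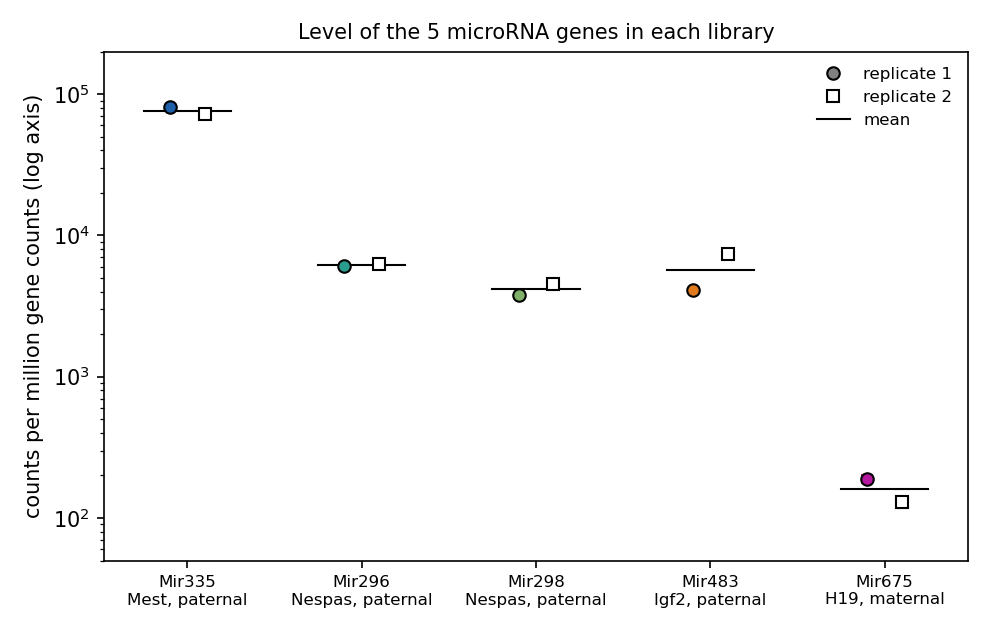
Points give the level of each gene in CPM on a log axis, filled circles for replicate 1 and open squares for replicate 2, with 95% counting intervals that are mostly smaller than the symbols and a line at the mean. Mir335 stands at 80628 and 71808 CPM, Mir296, Mir298 and Mir483 between 3771 and 7355 CPM, and Mir675 at 189 and 129 CPM.

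A read covers 1 arm of a hairpin, so levels were not divided by length for the values above. Per nucleotide of hairpin the means were 778 CPM for Mir335, 78.5 for Mir296, 78.3 for Mir483, 50.7 for Mir298 and 1.89 for Mir675. This leaves the order of the members in the mean as it was. How well each sequence was captured in the library was not measured, so the order is one of reads and not of molecules.

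By host allele, the 4 genes with a paternally expressed host summed to 94586 CPM in replicate 1 and 90006 CPM in replicate 2. Mir675, the gene with a maternally expressed host, had 189 and 129 CPM. The paternal sum was therefore 501 times the maternal level in replicate 1 and 696 times in replicate 2. Without Mir335 the ratio was 73.9 in replicate 1 and 141 in replicate 2. With 1 gene on the maternal side, this contrast cannot be told apart from the level of Mir675 itself.

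At the Igf2 and H19 locus, both microRNA genes can be set against each other within a library. Mir483 exceeded Mir675 by 21.6 times in replicate 1 and by 56.9 in replicate 2. The 2 genes differed in opposite directions, Mir483 being higher in replicate 2 and Mir675 higher in replicate 1. The ratio of Mir483 to Mir675 was 2.63 times larger in replicate 2, a log2 difference of 1.40 with a counting standard error of 0.08. The host transcripts are longer than the sequenced fraction, so Igf2 and H19 themselves were not analysed here.

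**Figure D3:**
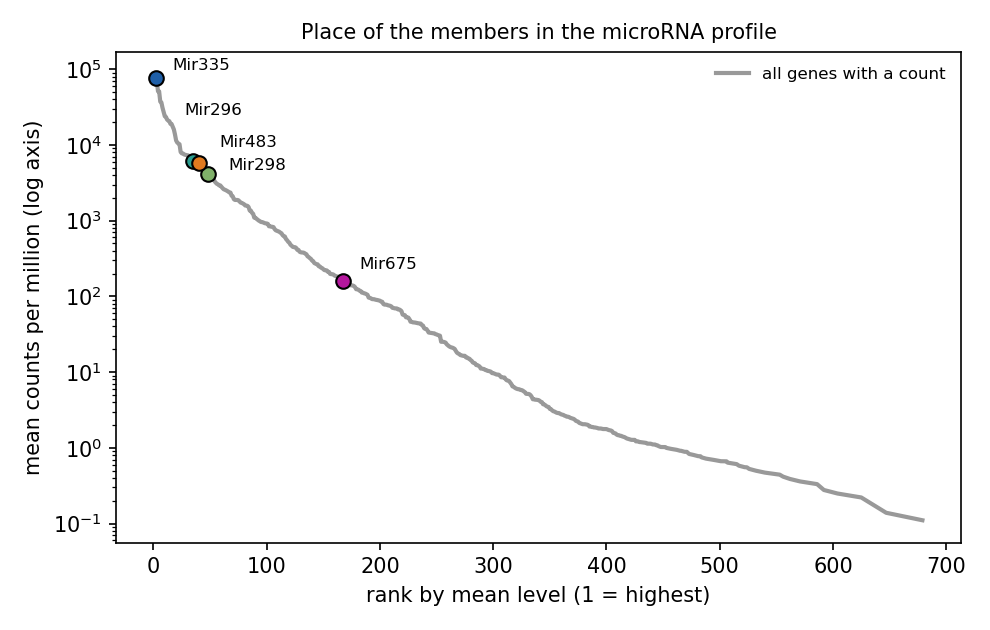
The line gives the mean level of every gene with a count, in CPM on a log axis, against its rank. Mir335 lies at rank 2, Mir296, Mir483 and Mir298 at ranks 35, 40 and 48, and Mir675 at rank 167.

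Each of the 5 genes was set against the spread between the libraries over all genes. A two-sided exact binomial test on the counts, with Benjamini-Hochberg adjustment over all 436 genes with 10 or more counts in the sum, called 41.7% of them at an adjusted p under 0.05. It called 5 of 5 members. The test sets the 2 libraries against counting error only, not conditions, and of the genes at 100 CPM or more it called 74.1%, so a call on all 5 sets the members little apart from other genes of their depth. Mir296, Mir298 and Mir483 were higher in replicate 2, where the test called 20.4% of all genes, and Mir335 and Mir675 were higher in replicate 1, where it called 21.3%. The median log2 ratio of the members was 0.05, against -0.01 over all genes tested.

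Mir483 had the largest log2 ratio of the 5, at 0.85 (counting SE 0.01). In size this was the 4th largest of the 189 genes at 100 CPM or more, whose log2 ratios had an SD of 0.32. Mir675 followed with -0.55 (SE 0.08, adjusted p = 1.32e-10 in the exact binomial test), the 19th largest in size. Mir298 had 0.27 (SE 0.02) and was the 64th, and Mir335 had -0.17 (SE 0.004) and was the 101st. Mir296 had 0.05 (SE 0.01) and was the 161st, with an adjusted p of 0.0015 in the exact binomial test. That call was lost under both other scalings of the libraries, with an adjusted p of 0.109 after trimmed-mean scaling in edgeR and 0.142 with DESeq2 size factors.

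The negative binomial exact test in edgeR takes its dispersion from the same libraries, which gave a biological coefficient of variation of 16.4%. It called 0 of the 436 genes. Before adjustment 25 had a p under 0.05, and the lowest adjusted p was 0.0876. Mir483 was among the 25, at an unadjusted p of 0.0107 and an adjusted p of 0.34 in this edgeR test. The adjusted p in edgeR was 0.956 for Mir675 and 1 for Mir335, Mir296 and Mir298. Since the dispersion was estimated from the same difference that is tested, with 1 library on each side, few or no calls could come from this test, and a member it did not call is not shown to be alike in the libraries.

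**Figure D4:**
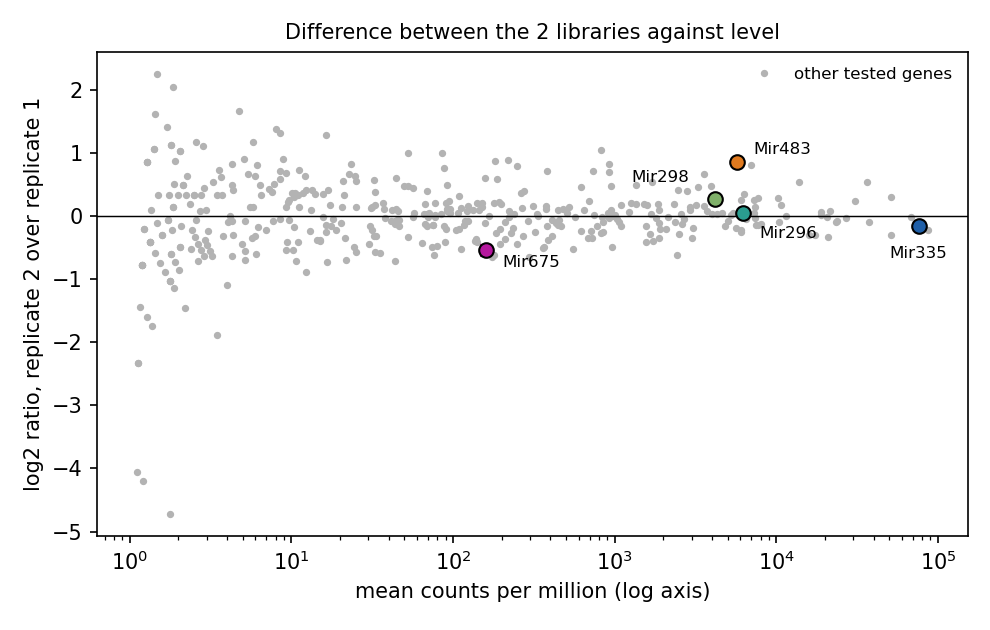
Each point is a tested gene, placed by its mean level in CPM on a log axis and by its log2 ratio of replicate 2 over replicate 1, with the 5 genes in color and bars of 1 counting standard error. Mir483 at 0.85 and Mir675 at -0.55 lie toward opposite edges of the cloud, and Mir335 and Mir296 close to 0.

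Limb microRNAs were present as the tissue label says, and markers of blood and liver were low. The 5 limb markers (Mir196b, Mir10b, Mir140 of cartilage, Mir206 of muscle and Mir205 of ectoderm) were all detected and summed to 148494 CPM in replicate 1 and 133615 in replicate 2. The 4 blood markers were all detected, none at 0, and summed to 496 and 492 CPM. Within them Mir451a was higher in replicate 1 (212 against 135 CPM), as Mir675 was, and so was Mir144 (27.2 against 16.6 CPM). Mir486 (17.5 against 27.7 CPM) and Mir223 (239 against 312 CPM) were higher in replicate 2, so the blood markers did not move together. The liver markers were both detected and summed to 79.8 and 84.6 CPM, with Mir122 higher in replicate 1 (17.0 against 13.0 CPM) and Mir192 higher in replicate 2 (62.8 against 71.6 CPM). Of 4 endocrine and neural markers, Mir7a-1 and Mir9-1 had no row under these symbols. A row under the related symbol Mir7-1 held 84.2 CPM in replicate 1 and 85.5 CPM in replicate 2. It was not matched to the list and is not in its sum. The 2 markers that were matched, Mir375 and Mir137, summed to 1554 and 1770 CPM, most of it from the endocrine Mir375 (1410 and 1613 CPM). The neural genes Mir9-2, Mir124a-1, Mir124a-2 and Mir124a-3, which were not in the list and were looked up after its values were seen, had 0 counts in both libraries, and Mir9-3 had 1.11 CPM in the mean. These genes have copies with the same mature strand, and reads that map to several places are not counted, so their 0 is not absence. In bulk tissue, a different share of a cell type and a different level per cell cannot be told apart, and the part of these cell types in the Mir675 and Mir483 differences was not tested.

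By level in both libraries, each member had its own nearest genes, measured as the Euclidean distance in log2(CPM + 1) over the 2 libraries among 451 other genes at 1 CPM or more. Mir335 lay nearest to Mir322 (68810 and 67878 CPM, distance 0.24) and to Mir196b (distance 0.27). Mir296 lay nearest to Mir411 (5927 and 6060 CPM, distance 0.07) and Mir487b (distance 0.11), both genes of the imprinted Dlk1-Dio3 region. Mir298 lay nearest to Mir369 (3978 and 4070 CPM, distance 0.18), of the same region, and to Mir30d (distance 0.19). Mir483 had no close neighbor: Mir125a (5053 and 8876 CPM) was at a distance of 0.41 and Mir92-1 at 0.45. Mir675 lay nearest to Mir362 (186 and 124 CPM, distance 0.07) and to Mir451a (distance 0.18). With 2 libraries this likeness is one of level and of 1 difference only.

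Most neighboring microRNA genes outside the imprinted loci gave few or no reads. Within 1 Mb of Mir335 lay 6 other microRNA genes with a row, of which Mir182 (3011 ± 505 CPM), Mir183 (2472 ± 484) and Mir96 (842 ± 104), a cluster known from sensory cells, were the highest. They lie on the opposite strand and 572 kb or more away, and none came near Mir335. Closer to Mir335, at 321 kb, Mir29a had 42.4 CPM in replicate 1 and 28.3 CPM in replicate 2. Around Mir296 and Mir298 the other 2 genes, Gm27591 and Mir6340, had 0 counts in both libraries. Around Mir483 and Mir675 the other 3 genes, Mir3104, Mir7063 and Mir7064, had at most 12 counts over both libraries.

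Beside the other imprinted microRNA regions, Mir335 alone held a larger share of the counted reads than each whole cluster. Its share was 8.06% in replicate 1 and 7.18% in replicate 2. The maternally expressed Dlk1-Dio3 region, taken as all 56 rows from Mir770 to Mir410 on chromosome 12, held 5.06% and 5.03%, with 41 rows detected and Mir487b highest at 6482 ± 156 CPM (SD, n = 2). The paternally expressed Sfmbt2 intron held 0.346% and 0.313% over 107 rows, of which 7 were detected, and Mir467d was highest at 1030 ± 26 CPM. The parental copy named for each region is background knowledge and was not measured in this limb tissue. The hairpins of the Sfmbt2 intron are near-identical repeats, and reads that map to several places are not in these counts. The counts of that intron are therefore a lower limit, but its share is not, since the total lacks such reads too. Such reads are also left out of the Dlk1-Dio3 counts, and how many belong to either region was not measured. Of the Dlk1-Dio3 rows that could be tested, the exact binomial test called 25 of 47 at an adjusted p under 0.05, with a median log2 ratio of 0.02. Of the Sfmbt2 rows it called 4 of 13, with a median of -0.16. It called 41.7% of all genes tested and 74.1% of those at 100 CPM or more, and the regions were not compared at equal depth.

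Reads of these loci lay on the strand of the annotated hairpin: on the opposite strand the 5 hairpins held 1 count in all, at Mir335 in replicate 1.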

How the data were processed

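The authors deposited, for each library, whole-number read counts per microRNA gene (both strands together, own strand, opposite strand). Per the README files among the deposited data, the build was mm10 and the annotation GENCODE M4. Which aligner and counter were used is not given in the sources used here. The own-strand counts were used. Totals leave out the 4 rows without a gene: reads mapping to several places were 27.2% of all reads in replicate 1 and 23.7% in replicate 2, and unmapped reads 23.8% and 32.6%.

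Of 1973 gene rows, 1894 matched GENCODE M21 by identifier without version. Levels are CPM, given with SD over the 2 libraries. Log2 ratios have 0.5 counts added. Library differences were tested with scipy 1.17.1 (two-sided exact binomial test, Benjamini-Hochberg adjustment) and with edgeR 4.0.16 in R 4.3.3. The binomial code was also run on counts simulated with counting error only. That run lacks the further spread between real libraries, so it checks the code and not the fit of the test to these data. DESeq2 1.42.0 gave size factors only. Hairpins were folded with ViennaRNA 2.7.2. The genes named are the 5 members, the 2 nearest genes of each in level, the marker genes, the highest gene of each other imprinted region and genes within 1 Mb, the last chosen after the data were seen. The members and lists were chosen with earlier results of these data known. The labels call the libraries biological replicates from separate pools of embryos.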

Additional observations from a re-analysis of the deposited data

How the results depend on the processing

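With all reads as the denominator the levels were lower by construction: 30425 CPM for Mir335, 2464 for Mir296, 1642 for Mir298, 2229 for Mir483 and 64.1 for Mir675. With Mir335 left out of the denominator, tried after the data were seen, Mir335 stood at 82531 and Mir296 at 6715 CPM. With both strands counted Mir296 stood at 6049 CPM, since the total grew. Without Mir335 the mean ratio of paternal to maternal members was 107 in place of 598. Leaving out 1 library gave ratios of 501 and 696, and for Mir483 over Mir675 21.6 and 56.9 around a mean of 39.2, so each library moves that ratio. The binomial call on Mir296 was lost with trimmed-mean scaling (log2 ratio 0.026) and with DESeq2 size factors (0.024). The negative binomial test in edgeR, whose dispersion comes from the same difference it tests, called 0 genes in place of 182 and says little about any member, and the members had log2 ratios of -0.15 (Mir335), 0.061 (Mir296), 0.28 (Mir298), 0.87 (Mir483) and -0.53 (Mir675). No ratio of a member changed sign under these settings. The levels per nucleotide of hairpin were also added after the data were seen. No paired analysis was possible because both libraries belong to 1 group. Only 2 libraries were measured, so each SD rests on 1 difference.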
